A study of Mus musculus with 18 samples.

Results

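The histone genes described here are the 30 mouse genes of the H1, H2A, H2B, H3 and H4 families that the arrays measured with a probe set of their own. They were chosen by symbol (H1f, H2ac, H2bc, H3c or H4c followed by a number) from the 19938 genes with such a probe set. They comprised 8 of 10 H1 genes, 4 of 18 H2A genes, 9 of 16 H2B genes, 3 of 12 H3 genes and 6 of 12 H4 genes with such symbols in RefSeq. Of the 38 others, 36 shared every probe set with further genes and 2 (H1f0 and H2ac14) were not in the array annotation. No measured value entered this rule, though it was chosen with earlier results of these data known. Each of the 30 genes had exactly 1 probe set of its own.

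RNA had been profiled on 18 whole-transcript arrays, 3 for each of 6 groups. Comma-D is a mouse mammary epithelial line, labelled normal, erbB2- and P-erbB2-. MMTV-neu is a mouse mammary tumour line named for the mouse mammary tumour virus promoter and the neu oncogene, a form of erbB2, and was labelled cancer, erbB2+ and P-erbB2+. The other 4 groups came from co-cultures of both lines at 1:50 and 1:1, which antibody-coated magnetic beads had divided into an erbB2-negative and an erbB2-positive fraction. Both negative fractions carried the label normal (erbB2-, P-erbB2-). The positive 1:50 fraction was labelled redirected (erbB2+, P-erbB2-), and the positive 1:1 fraction cancer (erbB2+, P-erbB2+). Which line made up the 50 parts is not stated. Co-cultures were grown in the Comma-D medium, with insulin and EGF, whereas the MMTV-neu medium lists neither; medium and line cannot be told apart. Nothing says that the 3 arrays of a group came from separate cultures, so the p-values measure only the spread between these samples.

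Core histones H2A, H2B, H3 and H4 form the octamer around which DNA is wound, and the linker histone H1 binds where DNA enters and leaves it. Most of their genes lie in clusters and are transcribed during S phase, and their messages end in a stem-loop in place of a poly(A) tail. The many gene copies of 1 core class encode nearly the same protein. Further members serve outside S phase or in the germ line: H1f10 is a linker gene outside the clusters, H1f6 and H1f7 belong to spermatogenesis, H1f8 to the oocyte, and H2ac1 and H2bc1 encode the testis forms of H2A and H2B.

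Values are log2 array signals as deposited, and a gene is called changed where limma's p, adjusted over all 19938 genes, was under 0.05. The groups differed over the whole array, which bears on every value below. The median of an array was 6.01 to 6.03 in Comma-D and 6.45 to 6.48 in MMTV-neu, and the standard deviation of its values was 1.97 to 1.99 against 1.51 to 1.55. The 9 reference genes measured averaged 10.3 to 10.4 per array in Comma-D and 8.83 to 9.04 in MMTV-neu. Within the negative 1:1 fraction, replicate 1 stood apart, with a median of 6.25 against 6.10 and 6.05 and a reference gene mean of 9.60 against 10.1 and 10.2. Replicate 1 also had the highest median and the lowest reference gene mean in both positive fractions. At 1:1 these were 6.41 against 6.34 and 6.28, and 9.01 against 9.30 and 9.55. At 1:50 they were 6.14 against 6.06 and 6.09, and 9.98 against 10.18 and 10.22. The mouse Erbb2 probe set did not follow the labels, with group means from 7.80 in the negative 1:1 fraction to 8.27 in the negative 1:50 fraction and 8.06 ± 0.14 (SD, n = 3) in MMTV-neu; whether it reads the neu transgene was not tested. Of 7 epithelial markers, 5 were lower and 1 higher in MMTV-neu than in Comma-D, and their array means were 7.88 to 8.09 against 9.20 to 9.28. All 5 endothelial and 3 adipocyte markers were higher, their array means staying at 5.87 to 6.04 and 5.93 to 6.01 in MMTV-neu, under that line's array medians; 4 of 5 leukocyte markers were higher and 3 of 5 fibroblast markers lower. The part of any of these in the histone results was not tested. In bulk RNA, fewer cells of a kind and less RNA per cell cannot be told apart, nor can a changed cell from a changed mixture of cells in a fraction.

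As deposited, histone genes of 1 class differed between the unmixed lines in opposite directions. H4c3, H2bc9, H1f10 and H2bc14 were higher in MMTV-neu by 1.74 to 2.44 log2 units. H2bc4, H1f2, H4c4 and H2ac15 were lower by 1.36 to 5.60. When arrays were centred on reference genes, H2ac15 turned to 0.07 and H4c4 was not called. Only H1 and H2B then kept a gene called lower. H4c4 was not called with quantile normalization either. In all, 18 members were higher and 4 lower, 22 of 30, where 86.8% of all genes were called (56.4% higher and 30.4% lower), so the share called among members was below that of all genes. Their median difference was 0.35, close to the 0.40 of all genes. By class, 5 of 8 H1 genes were higher and 1 lower (median 0.67), 1 of 4 H2A genes higher and 1 lower (0.03), 5 of 9 H2B genes higher and 1 lower (0.44), 2 of 3 H3 genes higher (0.26), and 5 of 6 H4 genes higher and 1 lower (0.93). With each array centred on the 9 reference genes, the split became 26 higher and 2 lower, and the all-gene median shifted by 1.42. H2bc4 and H1f2 were the members still lower. Of all 19938 genes, 16306 were then called higher and 1832 lower. With quantile normalization the member split was 15 higher and 3 lower, where 9643 of all genes were higher and 5119 lower. The H3 median then turned to -0.09 and that of H2A to -0.23.

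The share of genes called in each direction differed by their level in Comma-D. With all genes divided into 4 equal bins by that level, in the highest bin 5.96% of genes were higher in MMTV-neu and 83.7% lower, with a median of -1.37. That bin held 10 histone genes, of which 5 were higher (H1f1, H2bc9, H2bc14, H4c6 and H4c14), 4 lower (H1f2, H2ac15, H2bc4 and H4c4) and 1 not called (H1f5). In the bin next to it, 5 of 8 histone genes were higher (H1f7, H1f10, H2ac1, H2bc1 and H4c3) and none lower, against 39.0% higher and 34.5% lower of all genes there. At the dim end the members had the smaller shares. In the lower 2 bins, dimmer last, 3 of 5 and 5 of 7 histone genes were higher, against 88.1% and 92.7% of all genes. Members under the array median in all 6 groups numbered 8 (H1f3, H1f8, H2ac8, H2bc21, H2bc22, H3c7, H3c15 and H4c8), with differences between the lines of 0.08 to 0.87.

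**Figure D1:**
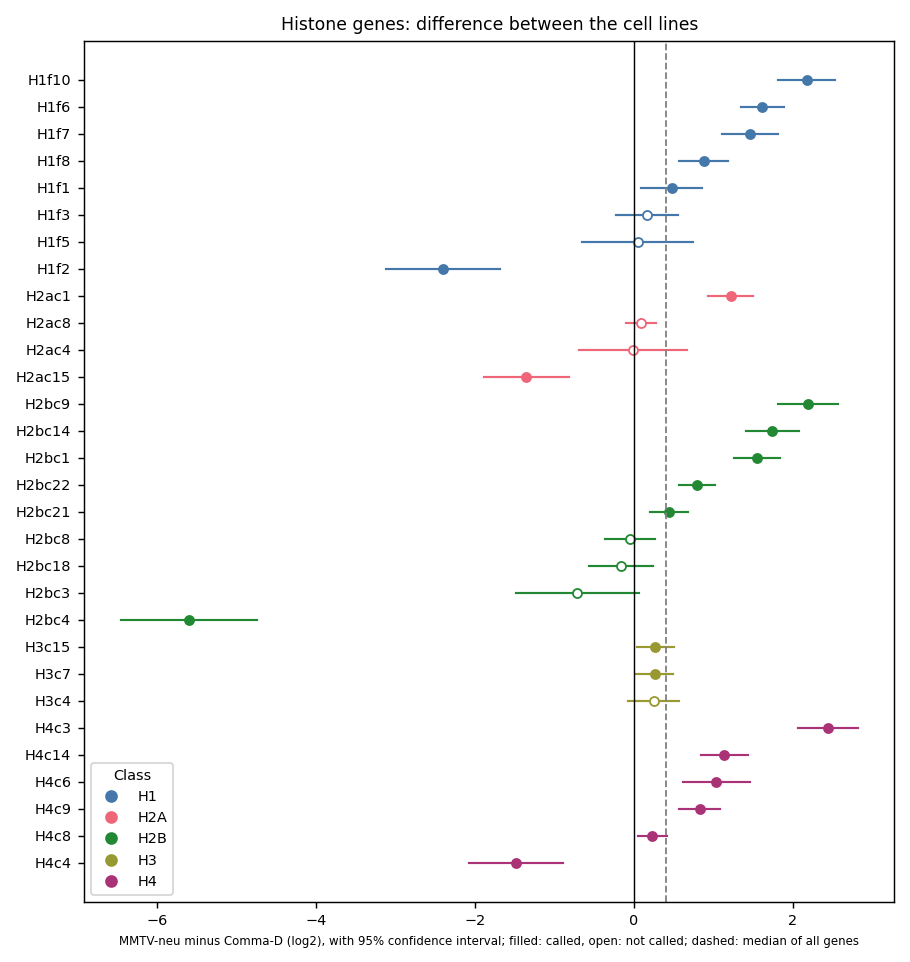
Difference between MMTV-neu and Comma-D (x axis, log2 units) for the 30 histone genes, grouped by class, with 95% confidence intervals of the limma fit (3 arrays a group); filled points were called, open points not, and the dashed line is the median of all genes (0.40). H1f2, H2ac15, H2bc4 and H4c4 lie left of 0, each beside class members that lie right of it. With reference gene centring H2ac15 lies at 0.07 and H4c4 is not called.

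Among the linker genes, H1f2 and H1f10 moved in opposite directions. H1f2 encodes a somatic H1 subtype found in most cells. It read 10.03, 10.09 and 10.17 in Comma-D and 7.60, 7.48 and 7.99 in MMTV-neu and the lines did not overlap. The difference was -2.41 ± 0.34 (SE; adjusted p = 5.29e-06), a 5.3-fold lower signal as deposited. In its bin of Comma-D level, the all-gene median was -1.37 and 83.7% of genes were lower. With reference gene centring H1f2 was still called lower, but the all-gene median between the lines rose from 0.40 to 1.82. The fold therefore holds for deposited values alone. The H1f2 values of the fractions were 9.96, 10.29 and 10.08 in the negative 1:50 fraction, 9.45, 10.23 and 10.00 in the positive 1:50 fraction, 7.99, 9.49 and 9.70 in the negative 1:1 fraction and 7.38, 7.99 and 8.41 in the positive 1:1 fraction. The positive 1:1 fraction lay near MMTV-neu, the 1:50 fractions lay near Comma-D, and replicate 1 of the negative 1:1 fraction sat far below its other two arrays.

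H1f10, a linker gene outside the clusters, read 7.77, 7.67 and 7.83 in Comma-D and 9.79, 9.99 and 9.99 in MMTV-neu. The difference was 2.17 ± 0.17 (adjusted p = 1.14e-08). For H1f10 the fractions gave 8.16, 8.02 and 8.08 in the negative 1:50 fraction, 8.88, 8.04 and 8.57 in the positive 1:50 fraction, 9.40, 8.93 and 8.90 in the negative 1:1 fraction and 9.79, 9.56 and 9.49 in the positive 1:1 fraction, so each of the 4 groups had a mean between those of the lines.

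Of the germ-line linker genes, H1f6 and H1f8 were dim. H1f6 read 4.77, 4.97 and 4.81 in Comma-D and 6.48, 6.51 and 6.41 in MMTV-neu, a difference of 1.61 ± 0.13. The H1f6 fractions gave 5.12, 4.95 and 5.07 in the negative 1:50 fraction, 5.44, 5.03 and 5.13 in the positive 1:50 fraction, 5.68, 5.35 and 5.26 in the negative 1:1 fraction and 6.24, 5.90 and 6.09 in the positive 1:1 fraction, all under the 3 MMTV-neu arrays. H1f6 was under the array median in every group but MMTV-neu, where 2 of its 3 arrays were just above the median.

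H1f7 read 6.58, 6.79 and 6.42 in Comma-D and 7.72, 8.21 and 8.24 in MMTV-neu, a difference of 1.46 ± 0.17. The H1f7 fractions gave 6.75, 6.59 and 6.51 in the negative 1:50 fraction, 7.10, 6.78 and 6.91 in the positive 1:50 fraction, 7.54, 7.08 and 6.87 in the negative 1:1 fraction and 7.92, 7.83 and 7.85 in the positive 1:1 fraction. The arrays of the 1:1 fractions did not overlap, the positive fraction being higher.

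H1f8 read 5.07, 5.17 and 4.96 in Comma-D and 5.77, 6.18 and 5.87 in MMTV-neu, under the array median throughout, and differed by 0.87 ± 0.14. The H1f8 fractions gave 5.26, 5.08 and 5.06 in the negative 1:50 fraction, 5.44, 5.21 and 5.16 in the positive 1:50 fraction, 5.61, 5.28 and 5.11 in the negative 1:1 fraction and 5.98, 5.73 and 5.56 in the positive 1:1 fraction. Its positive and negative 1:1 arrays overlapped.

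H1f1, another somatic H1 subtype, differed least of the called linker genes, by 0.47 ± 0.18 (adjusted p = 0.0219). It read 8.37, 8.57 and 8.24 in Comma-D and 9.20, 8.67 and 8.73 in MMTV-neu. The H1f1 fractions gave 8.45, 8.37 and 8.87 in the negative 1:50 fraction, 8.48, 7.93 and 8.56 in the positive 1:50 fraction, 8.35, 8.56 and 8.77 in the negative 1:1 fraction and 8.52, 8.59 and 8.70 in the positive 1:1 fraction, overlapping Comma-D. Its call was lost without Comma-D replicate 1 or 3 or MMTV-neu replicate 1, the last leaving a difference of 0.31. H1f3 and H1f5, further somatic subtypes, were called in none of the 11 comparisons, with line differences of 0.16 (95% interval -0.22 to 0.55) and 0.05 (-0.65 to 0.74).

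**Figure D2:**
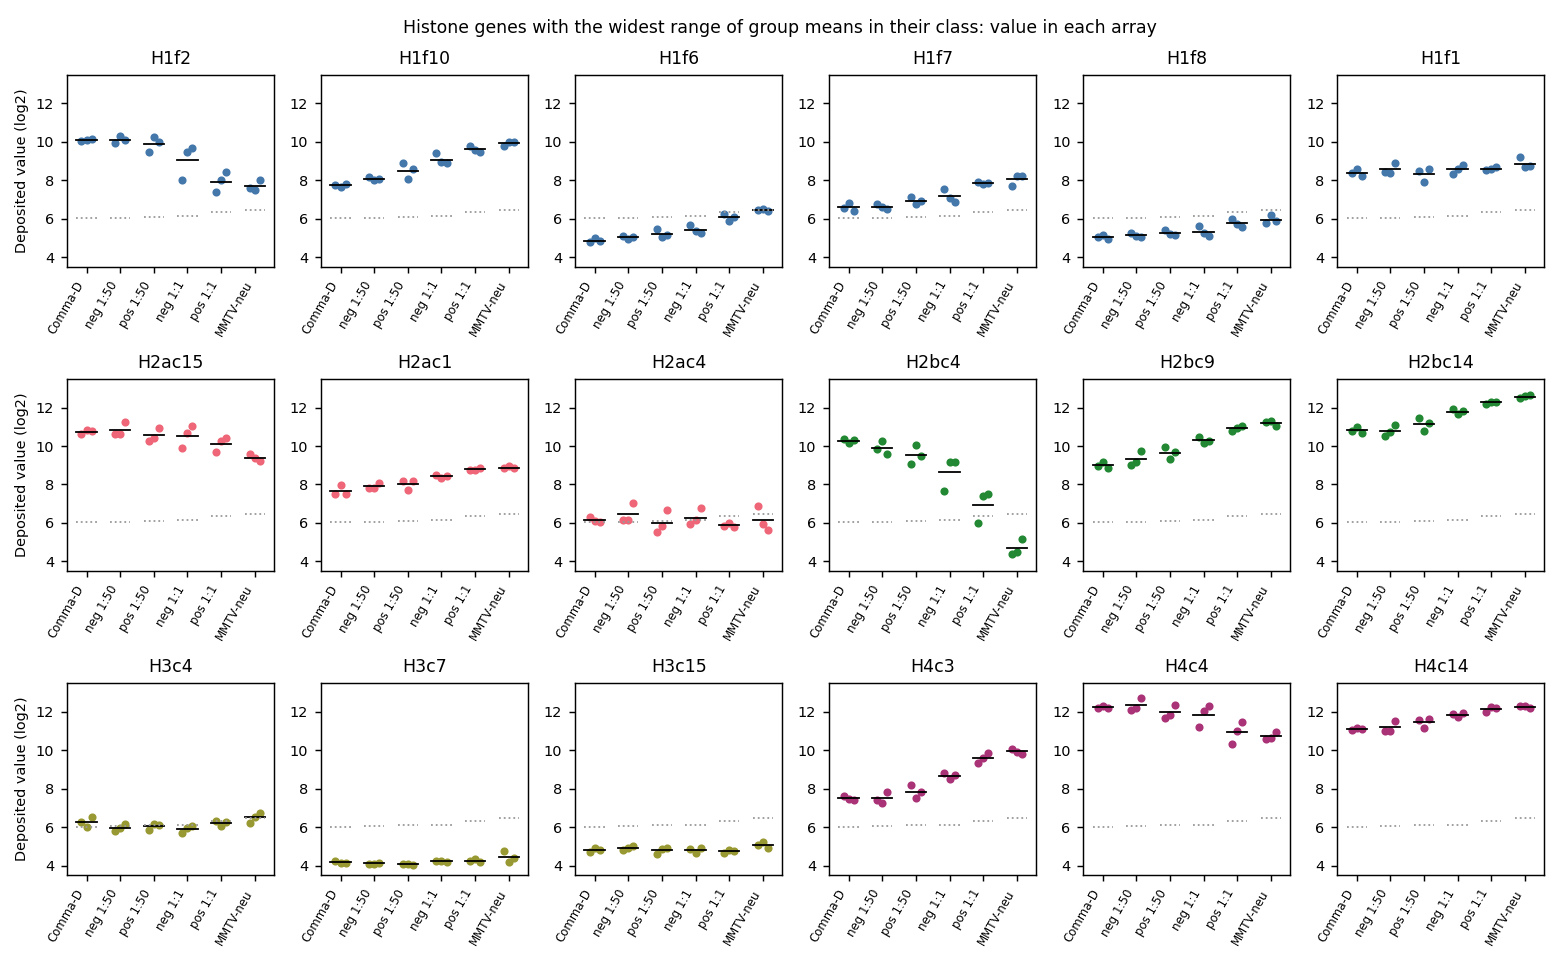
Deposited log2 value (y axis) in each array (points) by group (x axis), for the 3 genes of each class with the widest range of group means and every further H1 gene called; black bars are group means and grey dotted bars the mean array median. H1f2, H2ac15, H2bc4 and H4c4 descend from Comma-D to MMTV-neu, whereas H1f10, H2ac1, H2bc9, H2bc14, H4c3 and H4c14 ascend. With reference gene centring H2ac15 does not descend and H4c4 is not called.

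H2A had 4 genes with a probe set of their own. H2ac15, a clustered gene, read 10.61, 10.83 and 10.79 in Comma-D and 9.56, 9.39 and 9.21 in MMTV-neu, and the lines' arrays did not overlap. Its difference of -1.36 ± 0.26 (adjusted p = 1.03e-04) shrank to -0.26 (adjusted p = 0.253) with quantile normalization and turned to 0.07 with reference gene centring, and the median of all genes in its bin of Comma-D level was -1.37. The H2ac15 fractions gave 10.64, 10.64 and 11.22 in the negative 1:50 fraction, 10.27, 10.44 and 10.94 in the positive 1:50 fraction, 9.89, 10.67 and 11.03 in the negative 1:1 fraction and 9.68, 10.23 and 10.39 in the positive 1:1 fraction. Replicate 3 was the highest of its 3 arrays in each fraction.

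H2ac1, the testis H2A gene, read 7.52, 7.95 and 7.52 in Comma-D and 8.85, 8.93 and 8.85 in MMTV-neu and differed by 1.22 ± 0.14 (adjusted p = 4.11e-07). The H2ac1 fractions gave 7.83, 7.83 and 8.06 in the negative 1:50 fraction, 8.16, 7.69 and 8.17 in the positive 1:50 fraction, 8.50, 8.32 and 8.44 in the negative 1:1 fraction and 8.75, 8.76 and 8.87 in the positive 1:1 fraction. Both 1:1 fractions lay above all Comma-D arrays.

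H2ac4, a clustered gene, was called in no comparison. It read 6.33, 6.10 and 6.07 in Comma-D and 6.88, 5.94 and 5.63 in MMTV-neu, so the MMTV-neu arrays lay on both sides of the Comma-D arrays. The H2ac4 fractions gave 6.14, 6.15 and 7.04 in the negative 1:50 fraction, 5.54, 5.84 and 6.67 in the positive 1:50 fraction, 5.93, 6.15 and 6.76 in the negative 1:1 fraction and 5.83, 5.99 and 5.80 in the positive 1:1 fraction. H2ac8, the fourth gene, stayed between 4.46 and 4.83 on all arrays, with a line difference of 0.08 (95% interval -0.11 to 0.28).

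H2bc4 had the widest range of any histone gene. This clustered H2B gene read 10.39, 10.16 and 10.30 in Comma-D and 4.39, 4.50 and 5.16 in MMTV-neu, which is above the array median in each Comma-D array and under it in each MMTV-neu array. The difference was -5.60 ± 0.41 (adjusted p = 4.65e-09). The MMTV-neu arrays lay near the bottom of the scale and no detection values were used here, so the size of the difference is not taken as a fold. The H2bc4 fractions gave 9.82, 10.26 and 9.58 in the negative 1:50 fraction, 9.07, 10.03 and 9.48 in the positive 1:50 fraction, 7.64, 9.18 and 9.19 in the negative 1:1 fraction and 6.00, 7.38 and 7.48 in the positive 1:1 fraction. The positive 1:1 fraction lay apart from both lines, and replicate 1 was the lowest array of both 1:1 fractions and of the positive 1:50 fraction.

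H2bc9 and H2bc14, both clustered, moved the other way. H2bc9 read 8.97, 9.18 and 8.85 in Comma-D and 11.23, 11.30 and 11.02 in MMTV-neu and differed by 2.19 ± 0.18 (adjusted p = 1.70e-08). The H2bc9 fractions gave 9.00, 9.19 and 9.74 in the negative 1:50 fraction, 9.97, 9.33 and 9.68 in the positive 1:50 fraction, 10.46, 10.16 and 10.28 in the negative 1:1 fraction and 10.76, 10.94 and 11.03 in the positive 1:1 fraction. The group means rose from Comma-D through the 1:50 and 1:1 fractions to MMTV-neu.

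H2bc14 read 10.80, 11.00 and 10.70 in Comma-D and 12.47, 12.60 and 12.65 in MMTV-neu and differed by 1.74 ± 0.16 (adjusted p = 4.90e-08). The H2bc14 fractions gave 10.51, 10.73 and 11.09 in the negative 1:50 fraction, 11.45, 10.79 and 11.21 in the positive 1:50 fraction, 11.91, 11.65 and 11.80 in the negative 1:1 fraction and 12.21, 12.31 and 12.31 in the positive 1:1 fraction. Its 1:1 fractions lay above every Comma-D array and its positive 1:1 arrays under every MMTV-neu array. H2bc1, the testis H2B gene, differed by 1.55 ± 0.14, with 7.97, 8.06 and 8.02 in Comma-D and 9.69, 9.60 and 9.40 in MMTV-neu. H2bc22 (0.79) and H2bc21 (0.44) were higher at dim levels. H2bc3, H2bc8 and H2bc18 were not called between the lines, at -0.71, -0.05 and -0.17, with 95% intervals of -1.49 to 0.06, -0.36 to 0.26 and -0.57 to 0.24.

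The 3 H3 genes, all replication-dependent copies, gave little signal. H3c4 read 6.24, 6.02 and 6.51 in Comma-D and 6.23, 6.53 and 6.75 in MMTV-neu, and the lines overlapped (difference 0.24 ± 0.15, adjusted p = 0.144). The H3c4 fractions gave 5.79, 5.95 and 6.16 in the negative 1:50 fraction, 5.83, 6.16 and 6.12 in the positive 1:50 fraction, 5.72, 5.96 and 6.04 in the negative 1:1 fraction and 6.32, 6.08 and 6.28 in the positive 1:1 fraction. They lay around the array median.

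H3c7 was the dimmest member, with 4.26, 4.14 and 4.15 in Comma-D and 4.75, 4.20 and 4.38 in MMTV-neu; its difference of 0.26 was called (adjusted p = 0.036) although 1 MMTV-neu array fell among the Comma-D arrays, and without MMTV-neu replicate 1 it was 0.11. The H3c7 fractions gave 4.10, 4.08 and 4.15 in the negative 1:50 fraction, 4.08, 4.09 and 4.02 in the positive 1:50 fraction, 4.21, 4.22 and 4.20 in the negative 1:1 fraction and 4.23, 4.34 and 4.19 in the positive 1:1 fraction. All lay in a band near the bottom of the scale.

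H3c15 read 4.70, 4.89 and 4.82 in Comma-D and 5.08, 5.22 and 4.91 in MMTV-neu; its difference of 0.27 (adjusted p = 0.0344) turned to -0.09 with quantile normalization. The H3c15 fractions gave 4.79, 4.93 and 5.03 in the negative 1:50 fraction, 4.62, 4.88 and 4.89 in the positive 1:50 fraction, 4.86, 4.65 and 4.90 in the negative 1:1 fraction and 4.64, 4.82 and 4.77 in the positive 1:1 fraction, overlapping Comma-D in each group. Without any 1 of 4 arrays (Comma-D replicate 1 or 3, MMTV-neu replicate 1 or 2) H3c15 was not called, and H3c7 was not called without Comma-D replicate 2 or 3 or MMTV-neu replicate 1.

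H4c3 and H4c4 encode the same class of core histone and moved in opposite directions as deposited. H4c4 was not called with quantile normalization or centring. H4c3 read 7.60, 7.47 and 7.43 in Comma-D and 10.06, 9.93 and 9.83 in MMTV-neu, a difference of 2.44 ± 0.18 (adjusted p = 4.53e-09) or 5.42-fold. The H4c3 fractions gave 7.43, 7.26 and 7.84 in the negative 1:50 fraction, 8.20, 7.50 and 7.80 in the positive 1:50 fraction, 8.82, 8.49 and 8.72 in the negative 1:1 fraction and 9.33, 9.60 and 9.85 in the positive 1:1 fraction. Every array of the 1:1 fractions exceeded every array of Comma-D and of the 1:50 fractions.

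H4c4 read 12.17, 12.31 and 12.21 in Comma-D and 10.60, 10.66 and 10.96 in MMTV-neu and differed by -1.49 ± 0.28 (adjusted p = 1.09e-04). That difference shrank to -0.45 (adjusted p = 0.123) with quantile normalization and to -0.07 (adjusted p = 0.772) with reference gene centring, and the median of all genes in its bin of Comma-D level was -1.37. The H4c4 fractions gave 12.10, 12.21 and 12.73 in the negative 1:50 fraction, 11.68, 11.83 and 12.37 in the positive 1:50 fraction, 11.22, 12.04 and 12.31 in the negative 1:1 fraction and 10.35, 11.00 and 11.49 in the positive 1:1 fraction. Replicate 1 was the lowest and replicate 3 the highest array in each fraction.

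H4c14, from a smaller cluster on chromosome 3, read 11.06, 11.17 and 11.12 in Comma-D and 12.28, 12.29 and 12.18 in MMTV-neu and differed by 1.14 ± 0.14 (adjusted p = 1.30e-06). The H4c14 fractions gave 10.99, 11.02 and 11.54 in the negative 1:50 fraction, 11.55, 11.17 and 11.62 in the positive 1:50 fraction, 11.90, 11.74 and 11.92 in the negative 1:1 fraction and 11.98, 12.24 and 12.18 in the positive 1:1 fraction. Both 1:1 fractions lay above the Comma-D arrays. H4c6 (1.03 ± 0.20), H4c9 (0.83 ± 0.12) and the dim H4c8 (0.23 ± 0.09, but -0.25 with quantile normalization) were also higher in MMTV-neu.

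The 5 members with germ-line roles were grouped after their values were seen. H1f6, H1f7, H1f8, H2ac1 and H2bc1 were all higher in MMTV-neu, by 0.87 to 1.61, and all higher in the positive 1:1 fraction than in Comma-D, by 0.69 to 1.31. Over all genes, 56.4% were higher in the former comparison and 45.8% in the latter, and in the Comma-D level bin of H1f6 and H1f8 92.7% were higher between the lines. H2ac1 and H2bc1 are neighbours transcribed away from each other. Their line differences were 1.22 and 1.55, and their values in the positive 1:1 fraction stood 1.13 and 1.31 above Comma-D. The other such pair, H2ac8 and H2bc8, was called in neither gene between the lines.

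Promoter windows, the 250 bases before the RefSeq start (GRCm38.p6), were found for 26 of the 30 genes (not H2bc4, H2bc21, H3c7 and H4c14). Of these 26, those of the genes that rose most and fell most in each class, by at least 1 log2 unit between the lines, are shown so that elements of genes moving apart can be compared. Capitals mark matches, on either strand, to 5 motifs picked after these windows were seen. They are the CCAAT box, the TATA box in the form TATAAA, the octamer ATTTGCAT of H2B promoters, the H4 promoter element GGTCCG and the A-rich H1 element AAACACA. No match of a motif overlapped a match of another in a member window.
H1f2: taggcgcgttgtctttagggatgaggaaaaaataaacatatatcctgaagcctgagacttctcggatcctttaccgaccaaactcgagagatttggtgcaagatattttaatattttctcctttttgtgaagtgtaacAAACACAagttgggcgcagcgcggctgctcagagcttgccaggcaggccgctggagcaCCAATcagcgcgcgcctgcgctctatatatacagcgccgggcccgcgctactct
H1f10: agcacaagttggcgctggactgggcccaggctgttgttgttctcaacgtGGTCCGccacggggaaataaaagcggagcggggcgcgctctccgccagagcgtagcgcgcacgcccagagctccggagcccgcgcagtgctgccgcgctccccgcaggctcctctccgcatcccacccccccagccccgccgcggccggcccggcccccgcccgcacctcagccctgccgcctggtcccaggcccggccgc
H2ac15: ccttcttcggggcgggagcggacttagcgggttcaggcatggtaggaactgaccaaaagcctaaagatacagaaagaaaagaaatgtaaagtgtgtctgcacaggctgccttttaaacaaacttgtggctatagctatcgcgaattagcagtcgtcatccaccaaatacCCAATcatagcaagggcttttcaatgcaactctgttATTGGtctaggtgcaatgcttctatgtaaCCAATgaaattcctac
H2ac1: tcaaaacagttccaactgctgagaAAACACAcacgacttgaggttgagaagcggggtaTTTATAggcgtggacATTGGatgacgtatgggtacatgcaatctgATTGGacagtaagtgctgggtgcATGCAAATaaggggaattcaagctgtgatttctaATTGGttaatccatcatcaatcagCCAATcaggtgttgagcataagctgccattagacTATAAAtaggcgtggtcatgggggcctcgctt
H2bc9: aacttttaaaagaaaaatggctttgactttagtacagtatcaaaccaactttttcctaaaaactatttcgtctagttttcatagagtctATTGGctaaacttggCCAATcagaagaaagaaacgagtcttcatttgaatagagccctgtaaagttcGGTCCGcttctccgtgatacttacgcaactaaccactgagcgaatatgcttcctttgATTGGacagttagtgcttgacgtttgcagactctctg
H4c3: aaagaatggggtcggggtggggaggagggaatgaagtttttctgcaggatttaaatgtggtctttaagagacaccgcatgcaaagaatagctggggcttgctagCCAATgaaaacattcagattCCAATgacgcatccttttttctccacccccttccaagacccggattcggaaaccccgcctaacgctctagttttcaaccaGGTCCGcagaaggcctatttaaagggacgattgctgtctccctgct
H4c4: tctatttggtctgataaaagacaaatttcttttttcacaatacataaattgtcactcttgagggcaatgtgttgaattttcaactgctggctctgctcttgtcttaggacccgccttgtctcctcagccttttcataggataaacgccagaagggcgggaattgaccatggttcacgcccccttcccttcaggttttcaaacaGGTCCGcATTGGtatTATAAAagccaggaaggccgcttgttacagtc
They lie at chr13:23738557-23738806, plus strand (H1f2), chr6:87981483-87981732, minus strand (H1f10), chr13:21753913-21754162, minus strand (H2ac15), chr13:23934187-23934436, plus strand (H2ac1), chr13:23543445-23543694, minus strand (H2bc9), chr13:23698459-23698708, minus strand (H4c3) and chr13:23581318-23581567, plus strand (H4c4).

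CCAAT occurred in 20 of the 26 windows (76.9%), against 33.9% of all 32851 windows of that length, and in all 4 H2A and all 7 H2B windows. The octamer occurred in 3 of 4 H2A and 5 of 7 H2B windows and in no H1, H3 or H4 window, against 1.60% of all. GGTCCG was present in 4 of 5 H4 windows and 2 of the other 21, against 6.72% of all, and AAACACA in 4 of 8 H1 windows and 8 of 26 in all, against 6.25%. TATAAA was present in 14 of 26, against 12.4%. H4c3 and H4c4, which moved apart as deposited, both hold GGTCCG and the CCAAT box, and H4c4 holds TATAAA as well. H1f2 holds CCAAT and AAACACA, whereas the H1f10 window holds neither and has a GGTCCG match. H2ac1, which rose, holds the octamer and H2ac15, which fell as deposited, does not, while among H2B genes that rose H2bc14 holds it and H2bc9 does not. The windows of H2ac1 and H2bc1 share 220 bases, and those of H2ac8 and H2bc8 share 179. These are matches of letters in a window, not measured sites.

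Most histone gene copies are too alike to be told apart, and 26 probe sets name several histone genes, 24 with values of their own. Those of H3 each name 12 genes and those of H2A and H2B 14 to 20. The larger sets of a class overlap in the genes they name, so the 24 are not separate observations. They were tested on deposited values only. All were bright apart from 2 sets that name 2 genes each: group means ran from 12.5 to 13.2 over the 10 H3 sets and from 11.6 to 12.9 over the 6 distinct H2B sets. In a limma fit of all 35556 probe sets, 23 of the 24 were higher in MMTV-neu and none lower (82.1% of all probe sets were called, 53.1% higher and 29% lower), with a median of 0.55 and a highest difference of 1.23. The 2 H2A sets rose by 0.88 and 1.23, the 6 H2B sets by 0.77 to 1.16, the 10 H3 sets by 0.47 to 0.56 and the 4 H4 sets naming 11 genes by 0.52 to 0.58. In the fractions, 23 were higher in the positive 1:1 fraction than in Comma-D (72.1% of all probe sets called, 40.7% higher and 31.4% lower), 2 in the positive 1:50 fraction (4.28%, 1.11% higher and 3.17% lower) and 8 in the negative 1:1 fraction (29.8%, 12.1% higher and 17.7% lower), and 20 were lower in the positive 1:50 than in the positive 1:1 fraction (63.5%, 25.4% higher and 38.1% lower). Signal from such near-identical copies could also reach the probe sets of single genes, which makes those values uncertain, and its part was not tested.

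**Figure D3:**
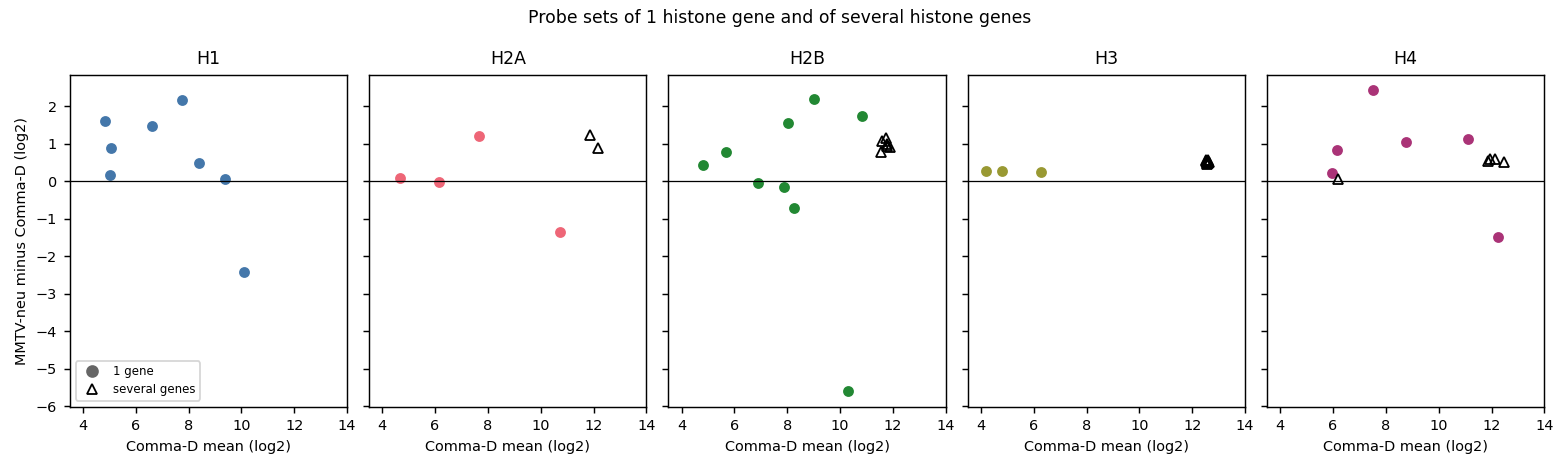
Difference between MMTV-neu and Comma-D (y axis, log2 units) against the Comma-D mean (x axis, log2 value) by histone class, for probe sets of 1 gene (filled circles) and of several histone genes (open triangles, each distinct set once). The bright triangles lie between 0.47 and 1.23 in H2A, H2B, H3 and H4. As deposited, circles of H2A, H2B and H4 lie on both sides of 0.

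More histone genes were called against Comma-D in the 1:1 fractions than in the 1:50 fractions. Against Comma-D, the positive 1:1 fraction had 13 members higher and 6 lower (78.3% of all genes called, 45.8% higher and 32.5% lower), the positive 1:50 fraction had 2 higher and none lower (5.71%, 1.17% higher and 4.54% lower), the negative 1:1 fraction had 9 higher and 2 lower (35.7%, 14.9% higher and 20.9% lower), and the negative 1:50 fraction had none called by limma (1.68%, 0.592% higher and 1.08% lower; 0 had an unadjusted p under 0.05, and the array-weighted fit called 1). These comparisons share the Comma-D arrays. The array-weighted fit stopped before convergence, and its share of all genes was not computed. Centred on the reference genes, the positive 1:1 split became 26 higher and 2 lower. There 17168 of all genes were called, 87.8% of them higher. With quantile normalization the negative 1:1 split became 10 higher and none lower. There 3108 of all genes were called, 57.3% of them higher. The 6 lower in the positive 1:1 fraction were H2bc4 (-3.33), H1f2 (-2.17), H4c4 (-1.28, and -0.19, not called, with centring), H2ac15, H2bc18 and H2bc8. H2ac15, -0.64 in the positive 1:1 fraction, turned to 0.17 with quantile normalization and to 0.45 with centring, and its call was lost without Comma-D replicate 2 or 3 or positive 1:1 replicate 1; H2bc8 (-0.36) and H2bc18 (-0.57) turned to 0.73 and 0.52 with centring.

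**Figure D4:**
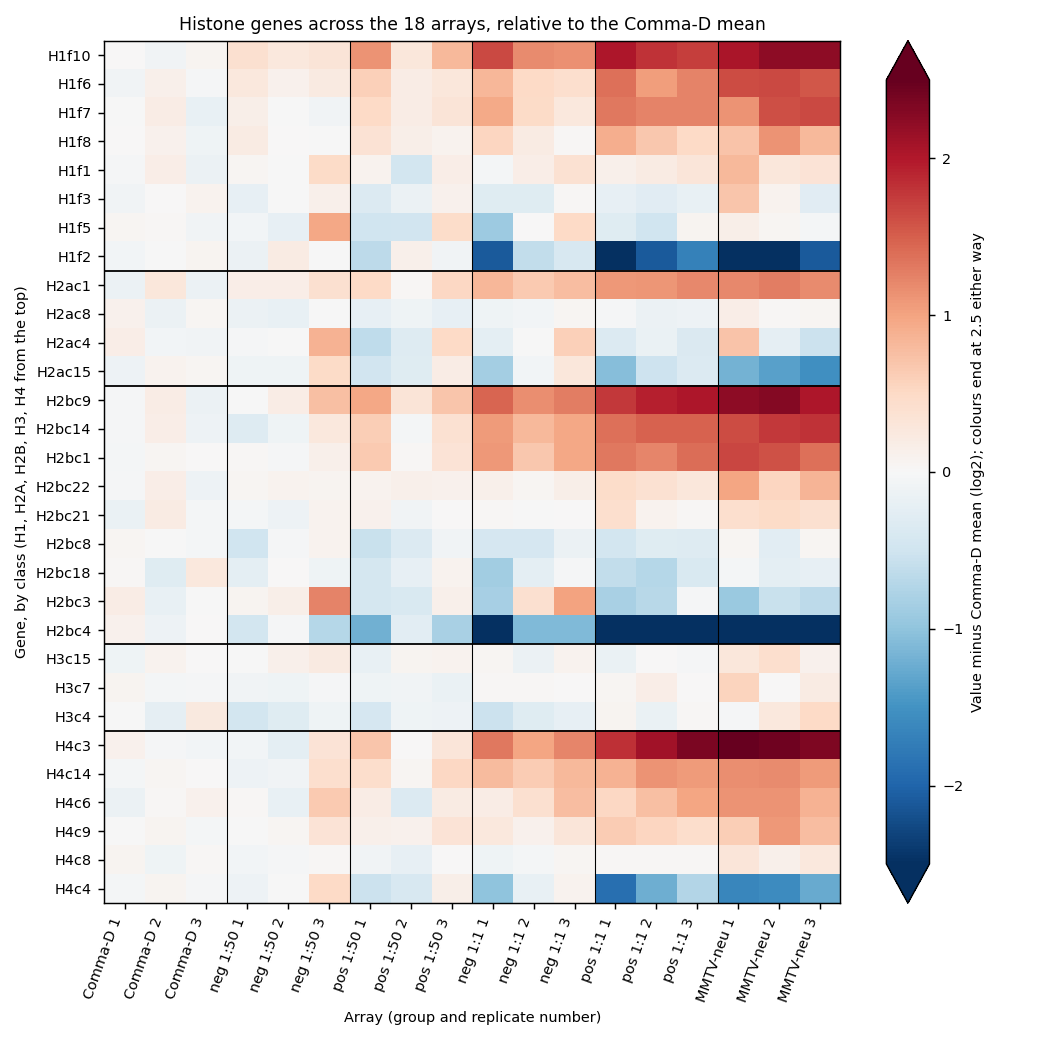
Value of each histone gene (rows, by class) in each of the 18 arrays (columns) minus the Comma-D mean of that gene, in log2 units; red is higher, blue lower, and colours end at 2.5 either way. The 1:50 columns are pale, the 1:1 columns stronger, and H1f2, H2ac15, H2bc4 and H4c4 turn blue while neighbours in their class turn red; with reference gene centring H2ac15 does not, and H4c4 falls by 0.07 in MMTV-neu and 0.19 in the positive 1:1 fraction, neither called.

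For genes that differed between the lines by at least 1 log2 unit and were called, each fraction's mean can be placed on a scale from Comma-D (0%) to MMTV-neu (100%). The 14 such histone genes had medians of 4.4% in the negative 1:50, 19.9% in the positive 1:50, 46.1% in the negative 1:1 and 85.7% in the positive 1:1 fraction. The 7507 such genes overall had medians of 3.4%, 19.0%, 34.5% and 82.2%. This order held for 13 of the 14 histone genes (92.9%) and for 90.8% of all such genes, H4c6 being the exception with 1.59% in the positive against 16.0% in the negative 1:50 fraction. In the positive 1:1 fraction H2ac15 (47.2%) and H2bc4 (59.4%) lay farthest from MMTV-neu, and H2ac1 (93.0%) nearest. For H2ac15 this holds for deposited values alone, since with centring its line difference turned to 0.07 and its positive 1:1 difference from Comma-D to 0.45. The 100% end of H2bc4 lies near the bottom of the scale. Scale and members come from the same line arrays, so these are descriptions.

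**Figure D5:**
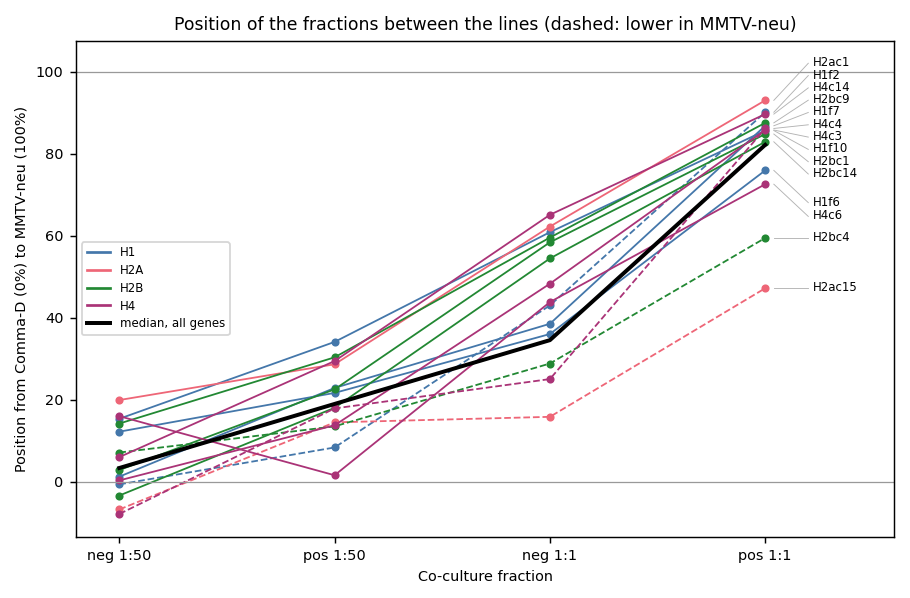
Position of each fraction's mean (y axis, 0% at the Comma-D mean, 100% at the MMTV-neu mean) for the 14 histone genes that differed by at least 1 log2 unit between the lines (thin lines, coloured by class, dashed where lower in MMTV-neu), by fraction (x axis); the thick line is the median of all 7507 such genes. H2bc4 and H2ac15 reach 59.4% and 47.2% in the positive 1:1 fraction, and the other 12 reach 72.6% to 93.0%; with reference gene centring the line difference of H2ac15 turns to 0.07, so its position holds for deposited values alone.

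The positive 1:50 fraction, labelled redirected, was set against both lines and against its 1:1 counterpart. Against MMTV-neu, 4 members were higher and 20 lower (83.4% of all genes called, 25.8% higher and 57.6% lower): H2bc4 by 4.84, H1f2 by 2.21, H4c4 by 1.22 and H2ac15 by 1.16 were the higher ones, H2ac15 turning to -0.02 with centring. With quantile normalization H4c4 and H2ac15 were 0.26 and 0.27 higher and not called, and H4c4 was 0.05 with centring. The largest falls were those of H4c3 (-2.10), H2bc9 (-1.52), H2bc14 (-1.43) and H1f10 (-1.43). The dim H2ac8, H3c15 and H4c8 were called lower by 0.25, 0.28 and 0.32, but turned to 0.01, 0.08 and 0.10 with quantile normalization. Against Comma-D, the 2 called were H1f10 (0.74 ± 0.17, adjusted p = 0.0167) and H2bc9 (0.66 ± 0.18, adjusted p = 0.0377). Under the scaling alternatives the differences were larger (H1f10 0.78 with quantile normalization and 0.99 with centring, H2bc9 0.81 and 0.91) but not called, with adjusted p of 0.102 and 0.0678 for H1f10 and 0.053 and 0.0533 for H2bc9. Neither was called without any 1 of Comma-D replicates 1, 2 and 3 and positive 1:50 replicates 1 and 3 (0 called in each case); 4 members were called without positive 1:50 replicate 2 and 1 without positive 1:1 replicate 2.

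Between the positive fractions, 3 members were higher at 1:50 than at 1:1 and 13 lower (71.4% of all genes called, 27.4% higher and 44% lower). H2bc4 was 2.57 ± 0.41 higher, H1f2 1.97 ± 0.34 and H4c4 1.02 ± 0.28. H4c3 had the largest fall among members, -1.76 ± 0.18, followed by H2bc9 (-1.25), H2bc14 (-1.13) and H1f10 (-1.12). With centring the split became 2 higher and 25 lower, and H4c4 fell to 0.17 (adjusted p = 0.447). Of all genes, 1802 were then higher and 14958 lower. H2bc22, -0.27 here, turned to 0.01 with quantile normalization. With the replicate number as a block in the 12 co-culture arrays, 19 members were called (77.8% of all genes), the added genes being H2ac15 (0.44, adjusted p = 0.0123), H2bc18 (0.39, adjusted p = 0.0257) and H3c7 (-0.19, adjusted p = 0.0332).

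The positive 1:1 fraction stayed close to MMTV-neu. H2bc4 was higher by 2.27 ± 0.41 (adjusted p = 0.00179), and H1f6 (-0.39) and H2bc22 (-0.41) were lower, 3 of 30 against 18.3% of all genes (4.21% higher and 14.1% lower). The split was 1 higher and 4 lower with quantile normalization and 1 higher and 19 lower with centring. Of all genes, 3407 were called with quantile normalization (36.3% of them higher) and 9210 with centring (5.98% of them higher). Leaving out negative 1:1 replicate 1 or positive 1:1 replicate 1 gave 5 called, and leaving out positive 1:1 replicate 2 or 3 gave 1. H1f6 (adjusted p = 0.0441) lost its call in 13 of the 18 such fits.

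The negative fractions differed between the ratios. At 1:50 as against 1:1, 2 members were higher (H2bc4 by 1.22 and H1f2 by 1.05) and 9 lower (30.3% of all genes called, 21.4% higher and 8.87% lower), among them H4c3 (-1.17 ± 0.18), H2bc14 (-1.01 ± 0.16), H1f10 (-0.99 ± 0.17) and H2bc9 (-0.99 ± 0.18). Quantile normalization gave none higher and 7 lower, where 901 of all genes were called, 48.5% of them higher. A fit of these 6 arrays alone called no member, but its share of all genes was not computed. Without negative 1:1 replicate 1, the array that stood apart, 6 members were called, all lower, and H2bc4 was 0.70 and H1f2 0.52 higher (adjusted p = 0.235 and 0.202). Without negative 1:50 replicate 2 or 3 the count was 6 and 7. Under the block H4c4 was called too (0.49, adjusted p = 0.0151). Against Comma-D, the 9 members higher in the negative 1:1 fraction were H1f10 (1.32), H2bc9 (1.30), H4c3, H2bc14, H2bc1, H2ac1, H4c14, H1f6 (0.58) and H1f7 (0.56), and the 2 lower were H2bc4 (-1.62 ± 0.41) and H1f2. H1f7 fell to 0.37 and lost its call without replicate 1. H1f2 was -1.04, and -0.50 (adjusted p = 0.183) without replicate 1, whereas H4c3 was 1.18, and 1.11 without it.

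Within a ratio, no member was called between the positive and negative 1:50 fractions (limma, 0 of 30; 0.01% of all genes called), 3 had an unadjusted p under 0.05, and the array-weighted fit called 10. The array-weighted fit stopped before convergence, and its share of all genes was not computed. With the replicate number as a block in the co-culture arrays no member was called (smallest adjusted p = 0.114). Within same-numbered pairs, 8 members were higher in all 3 pairs and 11 lower, 63.3% of members against 53.8% of all genes. H4c4 differed by -0.41, -0.38 and -0.36, H2ac15 by -0.37, -0.20 and -0.29 and H1f7 by 0.35, 0.19 and 0.40 in the pairs; the first 2 shrank to -0.16 and -0.07 on average with centring. The median half-width of the 95% intervals was 0.34 log2 units. At 1:1, 11 members were higher in the positive fraction and 3 lower (56.1% of all genes called, 35.2% higher and 21% lower). H4c3 (0.91 ± 0.18), H1f7 (0.70 ± 0.17) and H1f6 (0.64 ± 0.13) were the largest rises, and H2bc4 (-1.71 ± 0.41), H1f2 (-1.13) and H4c4 (-0.91) the falls, the arrays of the last pair overlapping between fractions. Centred, the split was 24 higher and 1 lower, where 16257 of all genes were called, 91.8% of them higher. As deposited, the count of members was 5 without negative 1:1 replicate 2, 7 without its replicate 3 and 6 without positive 1:1 replicate 1. With the block it was 17 (65.8% of all genes), H2ac15 (-0.43, adjusted p = 0.0189) and H3c4 (0.32, adjusted p = 0.023) among those added.

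Whether the effect of the ratio differed between the fractions was tested as an interaction. No member passed (0 of 30; 2.75% of all genes called, 2.45% higher and 0.301% lower), 3 had an unadjusted p under 0.05, and the array-weighted fit called 16. The array-weighted fit stopped before convergence, and its share of all genes was not computed. In the main limma fit H2bc4 had the largest interaction, 1.36 (95% interval 0.14 to 2.57, adjusted p = 0.181). In the 12 co-culture arrays with the replicate number as a block, H2bc4 (adjusted p = 0.0484) and H1f6 (-0.49, adjusted p = 0.0322) passed, where 12.4% of all genes did. Without negative 1:1 replicate 1, 4 members passed, and 1 without positive 1:50 replicate 1.

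Among genes that transcribe, process and deposit histones or copy DNA, calls lower in MMTV-neu outnumbered higher ones in 3 of 4 lists as deposited, but in none with reference gene centring. Over all genes, 56.4% were called higher and 30.4% lower. Of 16 genes for transcription and 3′ end formation of histone messages, 4 were higher and 10 lower in MMTV-neu (median -0.57). Eri1, an exonuclease that trims histone messages, was at -2.19, Ncbp1, a subunit of the cap-binding complex, at -2.00, and Lsm11, a part of the U7 particle that cleaves histone messages, at 1.42. Npat, the coactivator of clustered histone genes, was at -1.31 and Slbp, which binds the stem-loop, at -0.17 (not called). Of 21 histone chaperones measured, 3 were higher and 10 lower (median -0.46), with Atrx, which loads variant H3 with a partner, at -2.14, Nap1l4 at -1.59 and Ubn1, of the HIRA complex, at -1.56. Of 8 variant histone genes, 3 were higher and 2 lower (median 0.03), with H3f3a (0.98) and H2az1 (0.78) among the former and H2az2 (-1.16) and Macroh2a2 (-0.83) the latter. Of 35 DNA replication genes, 8 were higher and 10 lower (median -0.10), led by Pcna, the polymerase clamp, at -3.19, Rrm1 at -1.97 and Orc6 at -1.66. All genes had a median of 0.40, and the 9 reference genes, 8 of them lower, -1.10. Of the genes named as lower, Eri1, Ncbp1, Npat, Atrx, Nap1l4, H2az2, Pcna and Rrm1 lay in the highest bin of Comma-D level. There 83.7% of all genes were lower, with a median of -1.37. Ubn1, Macroh2a2 and Orc6 lay in the bin next to it, where 34.5% of all genes were lower and 39.0% higher. The part of level in the list results was not tested. With centring the medians of the 4 lists, in the order given, turned to 0.85, 0.96, 1.45 and 1.33 (all genes 1.82); with quantile normalization they were -0.18, -0.0014, 0.64 and -0.11 (all genes 0.23).

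In the positive 1:50 fraction set against its 1:1 counterpart, 10 of the 16 processing genes were higher and 3 lower (median 0.49), 11 of 21 chaperones higher and 2 lower (0.30), 2 of 8 variants higher and 2 lower (0.03), and 7 of 35 replication genes higher and 5 lower (0.06). All genes had a median of -0.19, with 27.4% higher and 44% lower, and the reference genes 1.00. In the highest bin of Comma-D level, 77.9% of all genes were higher and 4.99% lower here, with a median of 0.92. With centring the 4 medians turned to -0.36, -0.54, -0.81 and -0.78 (all genes -1.03), and with quantile normalization those of chaperones and variants turned to -0.06 and -0.18, the others being 0.19 and 0.03 (all genes -0.13). Of 8 immediate early and heat shock genes, which respond to handling, 7 were lower in MMTV-neu than in Comma-D (median -2.14) and 2 were higher and 1 lower between the positive fractions; their part in the histone results was not tested.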

How the data were processed

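The authors deposited 1 table of log2 expression values for 35556 probe sets on 18 arrays; the submitters' processing notes name RMA, R 3.1.2 and limma, with options not given in the sources used here. Of 23410 annotated probe sets, 21789 name 1 gene; for each of 19938 genes the one with the highest mean over all arrays was kept. The deposited log2 values were fitted as they stand with limma 3.58.1 in R 4.3.3, 6 groups in 1 fit with 12 residual degrees of freedom, for 11 comparisons and the interaction of fraction and ratio. P-values were adjusted over all 19938 genes by Benjamini-Hochberg (limit 0.05). The fit was tested on simulated data.

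Members and lists were chosen with earlier results of these data known. Values by array are given for genes ranking among the first 3 of their class by range of group means, plus each H1 gene called in any comparison; in other lists, the 3 largest called differences are named, and Npat, Slbp and further list members were picked after their values were seen. The 18 arrays were all distinct, and their number limits the precision.

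Same-numbered arrays deviated together in the co-culture fractions. Correlations were 0.148 to 0.515 between the positive and 0.221 to 0.429 between the negative fractions, 0.307 to 0.702 at 1:50 and 0.218 to 0.628 at 1:1. Between the lines they were 0.011 to 0.038, and in every other comparison at least 1 was lower. The replicate numbers were therefore taken as pairs in the co-culture fractions alone, though arrays of different numbers were not compared. The main fit had no such block, so its p-values and counts ignore the pairing. The block entered only in added fits. With the block in the co-culture arrays, 47.3% of all genes were called between the negative fractions, against 30.3% in the main fit. For the interaction the shares were 12.4% and 2.75%, and between the 1:50 fractions 0.01% in both. Promoter sequences are from RefSeq (GRCm38.p6). Alternatives were quantile normalization, centring on reference genes, other filters, thresholds and fits, and leaving out each array.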

Additional observations from a re-analysis of the deposited data

How the results depend on the processing

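Depth does not apply to arrays. Dim probe sets and 3 arrays a group limit the precision. Replicate 1 of the negative 1:1 fraction stood apart, and replicate 1 had the highest array median in both positive fractions too. The cause of each change below was not tested. Of 93 called differences of the genes given by array, quantile normalization kept 70 called in the same direction, weakened 20 and reversed 3; centring kept 82, weakened 8 and reversed 3. Limma's trend with robust spread and the replicate block lost none. Averaging probe sets lost none either, but each member has 1 probe set, so its values could not change there. Leaving out the dimmest 40% of genes kept the 76 whose genes remained; the others of the 93 were not tested there. Leaving out 1 array kept 1589 of 1674, weakened 85 and reversed none. Centring moved the median of all genes by 1.42 between the lines, -1.18, -0.84, 1.09 and -0.33 in the comparisons of the positive 1:50 fraction with MMTV-neu and the positive 1:1 fraction and of the latter with Comma-D and MMTV-neu, and by up to 0.67 elsewhere. The array-weighted fit stopped before convergence, and no member had another probe set to try.

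Counts of members called changed as follows. Quantile normalization gave 0 for the positive 1:50 fraction against Comma-D, 5 for the positive 1:1 fraction against MMTV-neu and 7 between the negative fractions. Centring gave 0, 20, 27 between the positive fractions and 25 between the 1:1 fractions. Of all genes, quantile normalization called 406, 3407 and 901 and centring 214, 9210, 16760 and 16257, in the orders given. For the settings that follow, save the block in the 12 co-culture arrays, no share of all genes was computed. Array weights gave 13 for the positive 1:50, 1 for the negative 1:50 and 19 for the negative 1:1 fraction against Comma-D, 18 between the negative fractions, 10 between the 1:50 fractions and 16 for the interaction. A limit of 0.01 gave 0 for the positive 1:50 fraction against Comma-D, 1 for the positive 1:1 fraction against MMTV-neu, 6 between the negative and 5 between the 1:1 fractions. A further limit of 2-fold gave 14 between the lines, 12 and 0 for the positive 1:50 fraction against MMTV-neu and Comma-D, 7 between the positive fractions, 1 and 12 for the positive 1:1 fraction against MMTV-neu and Comma-D, 5 for the negative 1:1 fraction against Comma-D, 4 between the negative and 2 between the 1:1 fractions. Fitting the compared groups alone gave 1 for the positive 1:1 fraction against MMTV-neu, 1 for the negative 1:50 fraction against Comma-D, 0 between the negative and 8 between the 1:1 fractions, and leaving out dim genes 1 for the positive 1:1 fraction against MMTV-neu.

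With the replicate block over all 18 arrays, 5 members were called between the positive 1:1 fraction and MMTV-neu, where the numbers are no shown pairs, with H2ac15 (0.72, adjusted p = 0.0199) and H3c15 (-0.33, adjusted p = 0.0392) added; H3c4 was added for the negative 1:1 fraction against Comma-D (-0.35, adjusted p = 0.031). The block in the 12 co-culture arrays, chosen after seeing the data, gave 2 for the interaction and, beyond the calls named with the results, changed no other call of the genes given by array.

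Leaving out 1 array gave 19 to 23 members called between the lines, 21 to 25 and 0 to 4 for the positive 1:50 fraction against MMTV-neu and Comma-D, 14 to 17 between the positive fractions, 1 to 5 and 16 to 19 for the positive 1:1 fraction against MMTV-neu and Comma-D, 0 for the negative 1:50 and 9 to 13 for the negative 1:1 fraction against Comma-D, 6 to 11 between the negative, 0 between the 1:50 and 5 to 16 between the 1:1 fractions, and 0 to 4 for the interaction.

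These values changed sign. H2ac15 turned to 0.067 between the lines, -0.017 in the positive 1:50 fraction against MMTV-neu and 0.45 in the positive 1:1 fraction against Comma-D with centring, and to 0.17 in the last with quantile normalization. H3c15 turned to -0.092 between the lines and 0.085 in the positive 1:50 fraction against MMTV-neu with quantile normalization. Of differences not called as deposited, centring turned H2ac4 to 1.41 between the lines, -0.70 between the positive fractions and 0.80 in the positive 1:1 fraction against Comma-D, H3c4 to 1.06 in the last, and H3c15 to -0.79 between the positive fractions, 1.03 in the positive 1:1 fraction against Comma-D and 0.62 between the 1:1 fractions, where array weights gave 0.15.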

Other observations

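Replicate 3 was often the highest of the 3 arrays of a co-culture fraction for histone genes, a pattern noticed in the values and not tested. It was highest in all 4 fractions for 7 of 30 members (23.3%), against 936 of 19938 genes (4.69%). Those members were H1f1, H1f3, H1f5, H2ac15, H2bc3, H4c4 and H4c6. By fraction it was highest for 22 members in the negative 1:50, 19 in the negative 1:1, 15 in the positive 1:50 and 15 in the positive 1:1 fraction, against 6968, 5967, 3861 and 4879 of all genes.

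H2bc3, a clustered H2B gene called in no comparison, read 8.31, 8.40 and 9.48 in the negative 1:50, 7.42, 8.64 and 9.24 in the negative 1:1, 7.81, 7.86 and 8.38 in the positive 1:50 and 7.43, 7.56 and 8.21 in the positive 1:1 fraction. H1f5, a somatic linker gene, read 9.29, 9.17 and 10.34, then 8.46, 9.38 and 9.86, then 8.87, 8.89 and 9.82, and 9.06, 8.88 and 9.44 in the same order of fractions. The array mean of the 35 DNA replication genes was also highest in replicate 3 of each fraction, at 7.57, 7.38 and 8.08 in the negative 1:50, 7.22, 7.45 and 7.81 in the negative 1:1, 7.30, 7.24 and 7.76 in the positive 1:50 and 7.25, 7.25 and 7.31 in the positive 1:1 fraction. The same held for the array means of the 9 reference genes (replicate 3 at 10.38, 10.20, 10.22 and 9.55 in that order). It also held for the 21 histone chaperones (8.37, 8.16, 8.09 and 7.72) and the 8 immediate early and heat shock genes (8.77, 8.82, 8.65 and 7.98). It did not hold in each fraction for the lists of histone message processing, variant histones or cell type markers. The fibroblast markers were lowest in replicate 3 of each fraction (6.20, 6.34, 6.33 and 6.02). The part of any of these in the histone values was not tested.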
